A study of Mus musculus with 18 samples.

Results

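The genes of the proteasome and of ubiquitin conjugation were followed on arrays of differentiating mouse ES cells. A clone was taken as a member where its only gene symbol in the annotation of the array begins with Psma, Psmb, Psmc, Psmd, Psme, Ube1, Ube2, Uba, Uch or Usp. This gave 171 clones of 105 genes, or 1.11% of the 15360 clones printed, with 90 clones on slide 1 and 81 on slide 2. None of the 171 was lost to the requirement of a value in every condition, and 103 of them were measured on all arrays, as were 8740 of all clones. By role, 19 clones of 14 genes belong to the 20S core, 28 clones of 16 genes to the 19S regulator, and 3 clones of 2 genes to the activators that cap the core. The 19S group includes Psmd5, Psmd9 and Psmd10, which are assembly factors and not subunits of the finished regulator. A further 42 clones of 25 genes belong to the E1 and E2 enzymes and 67 clones of 39 genes to the deubiquitinases. The last 12 clones, of 9 genes such as Ubald2, Ubap2l and Psmc3ip, were taken in by the letters of the symbol and were placed in none of these roles.

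The cells were IMT11, a mouse ES cell line that carries no genetic modification. The embryoid bodies (EBs) were made in hanging drops of 1000 cells and collected after 1, 2, 3 or 4 days. LIF, the cytokine that holds mouse ES cells undifferentiated, was left out of the medium (D1-LIF to D4-LIF) or kept in it (D1+LIF to D4+LIF). The undifferentiated cells (D0) were kept with LIF on gelatin, and all cultures had foetal and newborn bovine serum. Each of the 9 conditions was hybridised on 2 arrays against 1 pooled control, with the sample in Cy5 on one array and in Cy3 on the other, so a condition has n = 2. The labels speak of 2 biological sets and of different RNA for the repeats, but do not say which array belongs to which set, so dye and set cannot be told apart. The pool is given as EBs of Days 1 to 4 in the labels and as all samples in the study's methods. In bulk RNA of this kind, fewer cells of a type and less RNA per cell cannot be told apart.

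Ubiquitin is a small protein that is joined to other proteins in 3 steps. An E1 enzyme activates it with ATP, an E2 enzyme carries it, and an E3 ligase passes it to the target. Proteins with a chain of ubiquitin are bound by the 19S regulator, whose ring of ATPases (the Psmc subunits) unfolds them and feeds them into the 20S core, a barrel of alpha (Psma) and beta (Psmb) rings with the cutting sites inside. Deubiquitinases, mostly of the Usp and Uch families, take ubiquitin off again. In human ES cells a high proteasome activity is known, which depends on the 19S subunit PSMD11.

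A value is the log2 of sample over pool, after each slide of each array was centred on its own median, so 0 means that a clone stood at the middle of its slide. These are ratios, so the level of one gene cannot be set against that of another. The files do not state the direction of the ratio, and the values do not settle it. Over all clones, the Cy5 and the Cy3 array of the same condition correlated at -0.10 on average (range -0.52 to 0.48, 9 conditions), and on slide 2 the Cy3 arrays of D0 and D3-LIF correlated at -0.31. The values are read here as sample over pool on all arrays, and counts and medians of the members are also given with the opposite sign for the Cy3 values. The images differed in width. On slide 1 the standard deviation of the log2 ratios was 2.10 and 2.40 on the Cy5 arrays of D2-LIF and D1+LIF, and 2.23 on the Cy3 array of D0, and these 3 images had the largest spread of all. On slide 2 it was 0.426 to 1.41 on the Cy5 arrays, with the widest for D4+LIF, and 0.166 to 0.491 on the Cy3 arrays. Those 2 Cy5 images of slide 1 also lacked a value for 67 member clones in D2-LIF and for 27 in D1+LIF. Of all 7680 clones of slide 1, 6565 had no value in D2-LIF and 2855 had none in D1+LIF. On these images 0 is thus the middle of the clones left and not of the whole slide. The part of these images in the results was not tested beyond the values given with and without them.

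Read in this way, the members differed most between the dyes, in a difference which ran through the proteasome and the E1 and E2 enzymes and was small in the deubiquitinases. Of the 171 clones, 69 (40.4%) differed between the 9 Cy5 arrays and the 9 Cy3 arrays (limma, adjusted p under 0.05), and 65 of these were lower in Cy5. Among all 15360 clones 31.6% differed, with 1349 higher and 3507 lower, so the difference was common on the array and somewhat more so among the members. The median difference, Cy5 minus Cy3, was -0.40 over the members and 0.01 over all clones. This comparison was added after the values were seen. With the opposite sign for the Cy3 values 20 members were called (11.7%, against 8.96% of all clones), 18 of them among the 69. The medians were then -0.26 in the 20S core, -0.29 in the 19S regulator, -0.19 in the E1 and E2 enzymes and 0.00 in the deubiquitinases, against -0.01 over all clones.

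The 20S core had a median of -1.02 in this comparison, with 17 of its 19 clones below 0 and 10 called lower. Psmb7, which carries the trypsin-like site of the core, stood at -2.61 ± 0.41 (SE, adjusted p = 0.0011). The alpha subunit Psma3 stood at -2.03 ± 0.16 (adjusted p = 1.7e-05) in its clone on slide 2. In the 19S regulator the median was -0.86, all 28 clones were below 0 and 16 were called lower. The ATPase Psmc1 gave -2.04 ± 0.18 (adjusted p = 3.2e-05), and Psmd4, a ubiquitin receptor, gave -0.99 ± 0.19 (adjusted p = 0.0029). The smallest difference of the group was -0.08, for a clone of Psmd2. No 19S clone was higher in Cy5.

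The E1 and E2 enzymes had a median of -0.59, with 33 of 42 clones below 0 and 21 called lower. Ube2s, which lengthens chains for the anaphase-promoting complex, gave -2.44 ± 0.33 (adjusted p = 0.00046). Uba3, the catalytic part of the E1 of the ubiquitin-like protein NEDD8, gave -1.18 ± 0.13 (adjusted p = 0.00015). The deubiquitinases were spread to both sides. Their median was -0.07, with 37 of 67 clones below 0, 14 called lower and 4 called higher (26.9% in all, below the 31.6% of the array). Usp10, which trims ubiquitin from p53 in human cells, gave the lowest value of all members, -3.08 ± 0.24 (adjusted p = 1.7e-05). The 4 higher ones were Usp25 at 0.93 ± 0.28 (adjusted p = 0.029), Usp24, Usp3 and Usp4. Usp14, a deubiquitinase that sits on the 19S regulator, gave -2.19 and -1.64 in its 2 clones, both called.

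**Figure D1:**
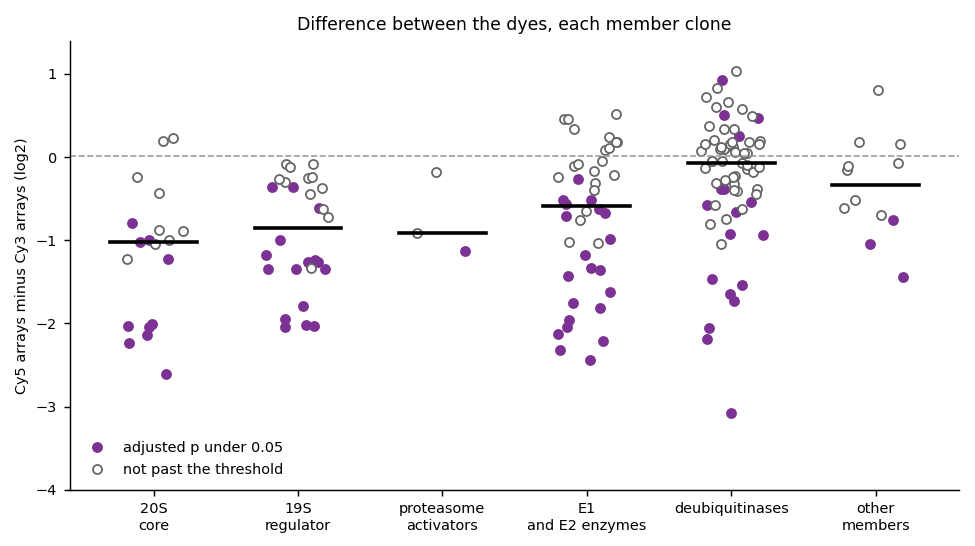
Difference between the 9 arrays with the sample in Cy5 and the 9 with it in Cy3 (log2, vertical axis) for each of the 171 member clones, by role. Filled points passed an adjusted p of 0.05 in limma, bars are medians and the dashed line is the median of all clones, 0.01; all 28 clones of the 19S regulator lie below 0, while the deubiquitinases lie on both sides.

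Both slides showed the difference between the dyes. On slide 2 the median was -0.91 for the 20S core, -0.80 for the 19S regulator, -0.31 for the E1 and E2 enzymes and -0.07 for the deubiquitinases. On slide 1, in the same order, it was -1.05, -0.98, -1.02 and -0.03. The 20S and 19S medians stayed below 0 under every scaling tried, but without centring they were -0.16 and -0.04, that of the E1 and E2 enzymes turned to 0.25 and that of the deubiquitinases to 0.83. The median of all clones was 0.88 there, so relative to the array all 4 groups were then lower. Centring on 1 median per array turned the median of the deubiquitinases to 0.12, and quantile normalization to 0.02.

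The groups were also ordered on single images. On each of the 9 Cy5 images of slide 2 the medians of the 20S core and of the 19S regulator lay below that of the deubiquitinases, with the E1 and E2 enzymes between. On the Cy3 images of slide 2 both proteasome medians were below the deubiquitinases on 1 of 9, and on 7 of 9 with the opposite sign. On slide 1 they were below on 8 of 9 Cy5 images, with the E1 and E2 enzymes between on 5, and on 3 of 9 Cy3 images, or 5 of 9 with the opposite sign. The 20S median on the Cy5 images of slide 2 ran between -2.02 in D4+LIF and -0.36 in D0, and on the Cy3 images between -0.07 in D0 and 0.27 in D2-LIF. For the 19S regulator the Cy5 range was -1.25 in D2+LIF to -0.19 in D2-LIF, and the Cy3 range was -0.08 to 0.25. The E1 and E2 enzymes ran from -0.76 in D4+LIF to -0.07 in D2-LIF in Cy5, and from 0.04 to 0.16 in Cy3. The deubiquitinases stayed between -0.13 and 0.04 in Cy5 and between -0.03 and 0.12 in Cy3. On slide 1 the proteasome medians stood highest, within each dye, on a wide image. The 20S median was 0.68 on the Cy5 image of D2-LIF, where that of the 19S regulator was 1.64, and 3.38 on the Cy3 image of D0. The D2-LIF image had no value for 67 members, so its medians rest on part of each group. Of the slide 1 clones, 7 of 13 in the 20S core and 4 of 16 in the 19S regulator had a value on every array.

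**Figure D2:**
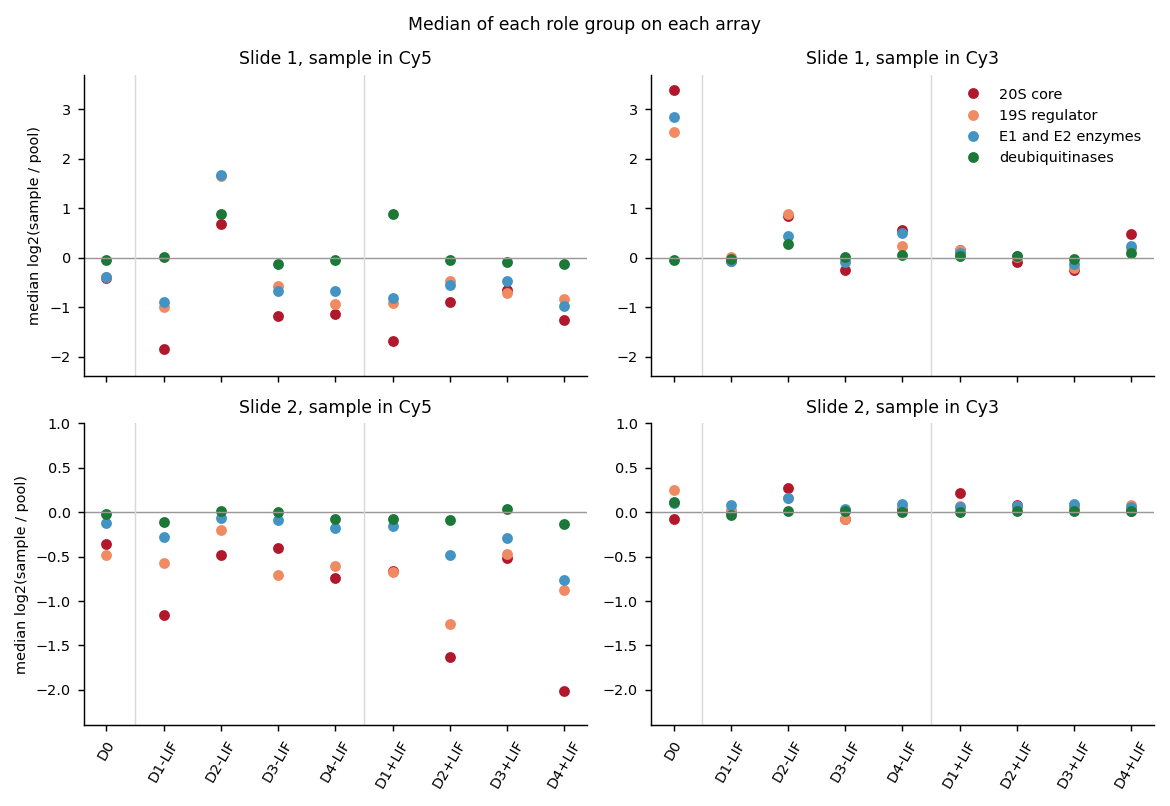
Median log2 ratio of sample over pool (vertical axis) of 4 role groups on each of the 18 arrays, by slide (rows) and dye (columns), with the 9 conditions along the horizontal axis; the axes of the 2 slides differ in range. On the Cy5 images of slide 2 the 20S and 19S medians lie below the deubiquitinases in all 9 conditions, while on the Cy3 images of slide 2 all groups lie within 0.27 of 0.

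The profile of a clone over the 9 conditions was only weakly alike in the 2 dyes. For the 81 members on slide 2 the median Pearson r between the Cy5 and the Cy3 profile was 0.08, with 50 above 0 (61.7%), and for all clones of that slide it was 0.16, with 64.6% above 0. These r values are a description over 9 conditions that share 1 pool, and each changes its sign with that of the Cy3 values.

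Against D0, and as read here, the EBs had lower ratios for most proteasome clones, but no member passed the test, and the medians changed sign with the Cy3 values. None of 171 was called in the mean of the 8 EB conditions minus D0 (limma, background 0.241%, 37 of 15360 clones), where 54 members had an unadjusted p under 0.05 (31.6%, against 32.9% of all clones). The lowest adjusted p of a member was 0.088, for Ubald2. The median difference was -1.35 in the 20S core, -0.62 in the 19S regulator, -0.36 in the E1 and E2 enzymes and -0.04 in the deubiquitinases, against 0.02 over all clones.

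These medians were farther from 0 on slide 1 and, in the 20S core and the 19S regulator, in Cy3. In the 20S core the median was -0.47 in Cy5 and -2.28 in Cy3, and in the 19S regulator -0.33 in Cy5 and -0.89 in Cy3. By slide the 20S median was -1.80 on slide 1 and -0.20 on slide 2, and it was -0.40 without the 3 wide images. For the 19S regulator it was -1.27 on slide 1, -0.20 on slide 2 and -0.20 without those images, and for the E1 and E2 enzymes -1.57, -0.08 and -0.15. With every image scaled to equal spread, the median was -0.08 for the 20S core and 0.02 for the 19S regulator. Centring on 1 median per array turned that of the deubiquitinases to 0.15. When the Cy3 values were given the opposite sign, it was 0.96 for the 20S core, 0.28 for the 19S regulator, 0.16 for the E1 and E2 enzymes and 0.05 for the deubiquitinases, against -0.03 over all clones, with 0 members called. Without centring, the medians were -0.25, 0.17, 0.25 and, for the deubiquitinases, 0.58, against 0.54 over all clones.

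Psmb7 had the lowest difference of any 20S clone, -2.65 ± 0.65 (SE, adjusted p = 0.098). Its Cy5 values ran from -3.63 to -1.24 in the EBs against -0.87 in D0, and its Cy3 values from -0.61 to 1.42 in the EBs against 4.14 in D0. The D0 array stood above all 8 EB arrays in both dyes. The proteasome-bound Usp14 gave -2.23 (adjusted p = 0.099), with -0.53 in Cy5 and -3.92 in Cy3. Ube2c, the E2 that starts chains for the anaphase-promoting complex, gave -1.93 (adjusted p = 0.10), with -0.16 in Cy5 and -3.70 in Cy3. Psmd11 stood at 0.20 (adjusted p = 0.35), with 0.26 in Cy5 and 0.15 in Cy3. The largest positive differences were those of Ubap2 at 1.95 (adjusted p = 0.099) and Usp40 at 1.49 (adjusted p = 0.18), both on slide 1.

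In 10 of the 103 members with every value (9.71%), all 8 EB arrays lay beyond the D0 array on the same side in both dyes, against 13.7% of 8740 clones. With the opposite sign for the Cy3 values this held for 7 members (6.8%), against 3.94% of the clones. As read here, the 6 that lay lower were Psmb7, Psma4, Psmd8, Ube2k, Usp10 and Ubald2. The 4 that lay higher were Usp24, Usp32, Usp45 and Psmc3ip, a factor of meiotic recombination that is not a proteasome subunit. The sign of the difference was the same in both dyes in 63 of these 103 members (61.2%), against 61.1% of all such clones, and in 40 (38.8%) with the opposite sign for the Cy3 values, against 38.9%. Each EB condition against D0, with the 2 D0 arrays shared by all 8 comparisons, called 0 members and 0 clones of all (limma, background 0), where 9 to 50 members had an unadjusted p under 0.05 (5.26% to 29.2%, against 7.42% to 26.3% of all clones). Without the Cy5 array of D0, 65 members were called for the mean of the EBs (38%, against 35.9% of all clones) and 456 in the sum over the 8 conditions (33.3% of the tests, against 30.3%). D0 is then the Cy3 array alone, with the wide slide 1 image, and is assumed to vary like the other conditions. Without the Cy3 array of D1+LIF the counts were 2 (1.39%, against 1.76%) and 22 (1.91%, against 2.04%), without that of D4+LIF 2 (1.17%, against 2.41%) and 34 (2.49%, against 2.36%), and without that of D2-LIF 0 and 2 (0.24%, against 0.385%).

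LIF made no difference that passed the test. Between the 4 EB conditions lacking LIF and the 4 that had it (the mean of each, the second subtracted from the first), 0 members and 0 of all clones were called (limma, background 0), and 2 members had an unadjusted p under 0.05 (1.17%, against 3.39% of all clones). The lowest adjusted p of a member was 0.87. The medians were 0.25 in the 20S core, 0.14 in the 19S regulator, 0.10 in the E1 and E2 enzymes and -0.04 in the deubiquitinases, against -0.03 over all clones. With the opposite sign for the Cy3 values they were 0.14, 0.05, 0.05 and 0.00, with 0 members called. In the 20S core the median was 0.54 in Cy5, over the 13 clones with every value, and 0.08 in Cy3, over all 19. Over all member clones, the largest in size was -0.71 for the slide 2 clone of Usp40, followed by 0.61 for Ube2d2a, an E2 used by many E3 ligases. Psmb1 of the beta ring gave 0.55, and Usp25 gave -0.50. In none of the 103 members with every value did the arrays without LIF lie beyond those with LIF on all 4 days in both dyes, against 1.09% of 8740 clones. With the opposite sign for the Cy3 values this held for 1 (0.971%, against 1.27%). Without the Cy3 array of D1+LIF 8 members were called (5.56%, against 5.76% of all clones), without that of D4+LIF 2 (1.17%, against 0.716%) and without that of D2-LIF 1 (0.962%, against 0.489%).

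At single days the LIF difference of the 20S core was largest on Day 2, where its median was 1.62 in Cy5 and 0.65 in Cy3, with 0.92 in the fit, or 0.16 with the opposite sign for the Cy3 values. That of the 19S regulator was 1.22 in Cy5 and 0.45 in Cy3, and that of the deubiquitinases 0.09 and 0.06. Here too the Cy5 medians cover only clones with a value on every array, and the Cy3 medians all clones. The Cy5 image of D2-LIF on slide 1 is 1 of the 3 wide ones, and it had no value for 6565 of 7680 clones. No member was called on any of the 4 days (limma, 0 of all clones called, 1 to 8 members with an unadjusted p under 0.05, or 0.585% to 4.68%, against 0.566% to 7.51% of all clones). On Day 2 without LIF, 3 of the 99 members with all 4 repeats were at least 2-fold above the pool in each repeat (3.03%, against 0.542% of 8483 clones), all on slide 1. These were Ube2d2a and the ATPases Psmc5 and Psmc3. The 4 repeats are 2 arrays with 2 spots each. Most of the 8483 clones are of slide 2, and the share among the slide 1 clones with a value was not counted. The 3 are thus not read as an excess among the members. No member met this criterion in any other condition. Of all clones, 0 met it at D0, 0.0391% at D1-LIF, 0.521% at D3-LIF, 0.0781% at D4-LIF, 0.0432% at D1+LIF, 0.0326% at D2+LIF, 0.137% at D3+LIF and 0.0521% at D4+LIF.

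No trend over Days 1 to 4 passed the test either. Without LIF 0 members and 0 clones of all were called (limma, background 0), and 0 members had an unadjusted p under 0.05. With LIF 0 were called as well, and 8 members had an unadjusted p under 0.05 (4.68%, against 3.98% of all clones). The medians of the 4 groups lay between -0.02 and 0.00 per day without LIF and between -0.05 and 0.03 with LIF, or between -0.06 and -0.03 with LIF and the opposite sign for the Cy3 values. The steepest member slopes were -1.0 per day for Usp39, which belongs to the spliceosome, and -0.94 for Psmb4 of the beta ring, both with LIF and on slide 1 (adjusted p = 0.66 each). Without the Cy3 array of D1+LIF 21 members were called with LIF (14.6%, against 13.5% of all clones), and without that of D4+LIF 5 (2.92%, against 5.34%). The F test over the 9 conditions called 0 members (limma, background 0), with 3 at an unadjusted p under 0.05 (1.75%, against 3.89% of all clones), namely Usp2, Ubald2 and the slide 1 clone of Psmc5. It called 28 without the Cy5 array of D0 (16.4%, against 15.1% of all clones), 14 without the Cy3 array of D1+LIF (9.72%, against 7.65%), 2 without that of D4+LIF (1.17%, against 0.358%) and 1 without that of D2-LIF (0.962%, against 0.762%).

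Against the pool, members passed the test in 3 of the 9 conditions, and all were clones of slide 2. At D4+LIF 10 of 171 members were called (5.85%, against 4.83% of all clones), 9 lower and 1 higher. At D1-LIF 2 members were called lower (1.17%, background 1.41%) and at D3+LIF 2 were called lower (1.17%, background 1.5%), in both cases Psma3 and Ubald2. The other conditions called none, with backgrounds of 0 at D0, D2-LIF and D1+LIF, 0.612% at D3-LIF, 0.00651% at D4-LIF and 0.0521% at D2+LIF. All 9 comparisons share the pool. The share of members was near that of the array in each of the 3 conditions.

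Among the 20S genes the called clones were those of the alpha subunits Psma3 and Psma4. Psma3 had Cy5 values of -1.37 in D0, -2.48, -1.79, -1.60 and -1.33 in D1-LIF to D4-LIF, and -1.93, -2.01, -2.30 and -2.55 in D1+LIF to D4+LIF. Its Cy3 values were 1.26 in D0, -0.09, 0.36, -0.38 and 0.01 in D1-LIF to D4-LIF, and 0.10, 0.03, -0.40 and 0.04 in D1+LIF to D4+LIF. All 9 Cy5 arrays lay below all 9 Cy3 arrays, and the called value of -1.26 ± 0.24 at D4+LIF (adjusted p = 0.017) is the mean of -2.55 in Cy5 and 0.04 in Cy3. Here and below, the share of all clones whose dyes do not overlap was not counted, and 31.6% of all clones were called between the dyes. Such a gap is thus not taken as a trait of the clones named.

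Psma4 had Cy5 values of -0.71 in D0, -1.97, -0.92, -1.08 and -1.60 in D1-LIF to D4-LIF, and -1.92, -2.55, -1.28 and -3.50 in D1+LIF to D4+LIF. Its Cy3 values were 1.00 in D0, -0.14, 0.79, -0.09 and 0.25 in D1-LIF to D4-LIF, and 0.34, 0.34, 0.08 and 0.00 in D1+LIF to D4+LIF. D0 was highest in both dyes and D4+LIF lowest in Cy5 alone. Its value at D4+LIF was -1.75 ± 0.36 (adjusted p = 0.025).

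The called 19S clones were Psmd8 and Psmd6, both subunits of the lid. Psmd8 stood at -1.69 ± 0.40 at D4+LIF (adjusted p = 0.043), from -3.53 in Cy5 and 0.15 in Cy3. Psmd6 stood at -1.39 ± 0.34 (adjusted p = 0.049), from -2.70 in Cy5 and -0.08 in Cy3. Both had their lowest Cy5 value at D4+LIF, where their Cy3 values lay within those of the other conditions.

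Of the E2 enzymes, Ube2d3, which works with many E3 ligases, stood at -1.28 ± 0.25 (adjusted p = 0.021), from -2.88 in Cy5 and 0.32 in Cy3. Ube2k, which builds chains linked through lysine 48 of ubiquitin, stood at -1.18 ± 0.27 (adjusted p = 0.039), from -2.46 in Cy5 and 0.10 in Cy3. The Cy5 and Cy3 values of both clones did not overlap over the 9 conditions.

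Of the deubiquitinases, Usp10 had the lowest value, -2.08 ± 0.37 (adjusted p = 0.012), from -4.32 in Cy5 and 0.15 in Cy3. Its 9 Cy5 values lay between -4.32 and -2.13 and its 9 Cy3 values between -0.41 and 1.73. Usp1, which acts on the DNA repair proteins FANCD2 and PCNA, stood at -1.47 ± 0.33 (adjusted p = 0.038), from -2.85 in Cy5 and -0.08 in Cy3. Its Cy5 and Cy3 values did not overlap either.

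Usp2, a deubiquitinase of cyclin D1 and Mdm2 in human cells, was the 1 member called higher. It stood at 0.64 ± 0.12 at D4+LIF (adjusted p = 0.016), from 0.52 in Cy5 and 0.77 in Cy3. In Cy5 the other values were -0.02 in D0, -0.20, 0.09, 0.04 and 0.03 in D1-LIF to D4-LIF, and 0.06, 0.17 and -0.19 in D1+LIF to D3+LIF. In Cy3 they were 0.32 in D0, 0.00, -0.07, 0.07 and 0.01 in D1-LIF to D4-LIF, and 0.00, -0.05 and -0.16 in D1+LIF to D3+LIF. D4+LIF was the highest of the 9 conditions in both dyes, which held for 3 of 103 members on either side (Usp2 and Usp53 higher, Ubac2 lower; 2.91%, against 3.44% of 8740 clones). When the Cy3 values were given the opposite sign, this held for 0 members (against 1.44%), and Usp2 gave -0.13 at D4+LIF. The 9 lower clones then kept their sign, between -2.24 for Usp10 and -1.10 for Ubald2, and none was called (limma, adjusted p of 0.12 or more).

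Ubald2, a protein with a UBA-like domain, was called in all 3 conditions. It stood at -1.19 at D1-LIF (adjusted p = 0.046), -1.46 at D3+LIF (adjusted p = 0.023) and -1.47 ± 0.24 at D4+LIF (adjusted p = 0.0091). In Cy5 its values were -0.88 in D0, -1.95, -1.27, -1.32 and -1.39 in D1-LIF to D4-LIF, and -1.38, -2.07, -2.19 and -2.57 in D1+LIF to D4+LIF. In Cy3 they were 1.04 in D0, -0.42, -0.30, -0.61 and -0.39 in D1-LIF to D4-LIF, and -0.08, -0.25, -0.72 and -0.36 in D1+LIF to D4+LIF. All 8 EB arrays lay below 0 and below D0 in both dyes.

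**Figure D3:**
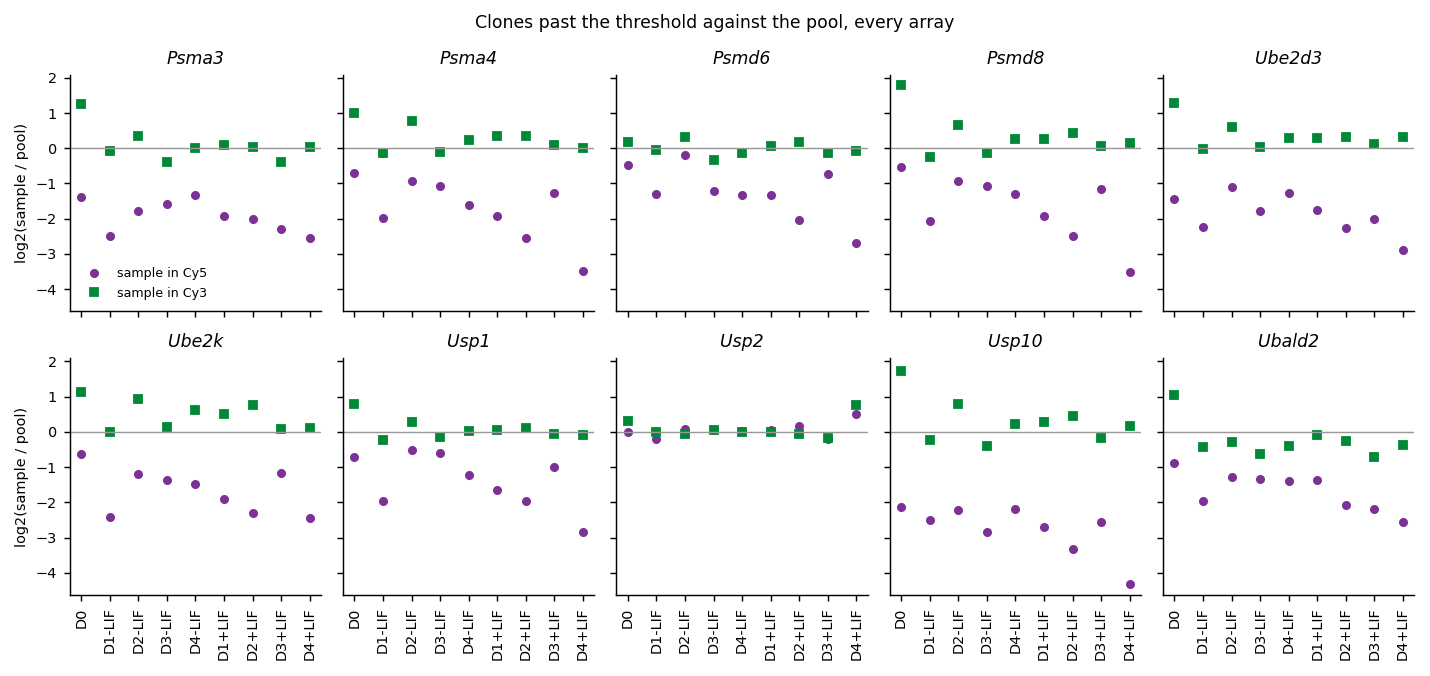
Log2 ratio of sample over pool (vertical axis) of the 10 clones called against the pool in any condition, on each of the 18 arrays, with conditions along the horizontal axis and 1 array per dye and condition (circles Cy5, squares Cy3). In 8 of the panels all Cy5 values lie below all Cy3 values, in that of Psmd6 they overlap, and in that of Usp2 the dyes overlap and D4+LIF stands highest, at 0.52 in Cy5 and 0.77 in Cy3. The share of all clones whose dyes do not overlap was not counted.

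The count of calls against the pool depended on the arrays and on the fit. Of the 14 calls over the 9 conditions, 0 were left with equal spread, with quantile normalization, without the dye term or with the opposite sign for the Cy3 values. There were 74 without the Cy5 array of D0 (4.81% of the tests, against 4.6% over all clones), 52 without the Cy3 array of D4+LIF (3.38%, against 3.42%), 49 without that of D2-LIF (5.24%, against 4.93%) and 37 without that of D1+LIF (2.85%, against 2.93%). With 1 array of D1-LIF, D3+LIF or D4-LIF left out, of either dye, there were fewer than 14 calls. The same held without the Cy5 array of D1+LIF or of D2-LIF. In each of these fits the share of member tests called was near that over all clones. Over all alternatives run for the call at D4+LIF, Ubald2 was called in 25 of 30, Psma4 in 24 of 30, Usp2 in 24 of 29, Psmd8 in 11 of 30 and Psmd6 in 9 of 30.

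The promoters of the members were looked up in RefSeq (GRCm38.p6), as 250 bases before and 50 after the annotated start. A promoter was found for 83 of the 105 genes. They were searched on both strands for TGACNNNGC, a form of the element bound by NFE2L1 (which raises proteasome genes when the proteasome is blocked), for CCAAT and for the GC box GGGCGG. The 3 patterns were chosen after the values were seen, and each was counted apart from the others, also where matches overlapped. TGACNNNGC was found in 1 of 11 promoters of the 20S core (9.09%), 1 of 13 of the 19S regulator (7.69%), 3 of 19 of the E1 and E2 enzymes (15.8%) and 7 of 30 of the deubiquitinases (23.3%), against 12.5% of 27025 promoters. CCAAT was in 7 (63.6%), 4 (30.8%), 6 (31.6%) and 5 (16.7%) of the same groups, against 37.9%. The GC box was in 4 (36.4%), 9 (69.2%), 16 (84.2%) and 22 (73.3%), against 35.9%. A match is a run of letters in this window and not a bound site.

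The last 100 bases before the start are shown for 5 genes with a called clone, 1 or more from each main role, and for Psmb5, which carries the chymotrypsin-like site of the core and held the single TGACNNNGC of the 20S promoters. They are on GRCm38.p6 and are written 5′ to 3′ on the strand of the gene, with the matches to the 3 patterns in capitals.
Psma4, chr9:54950759-54950858 (+), with 3 overlapping GC boxes on the other strand: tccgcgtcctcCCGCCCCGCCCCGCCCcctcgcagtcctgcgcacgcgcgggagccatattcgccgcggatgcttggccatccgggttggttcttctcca
Psma3, chr12:70974523-70974622 (+), with no match: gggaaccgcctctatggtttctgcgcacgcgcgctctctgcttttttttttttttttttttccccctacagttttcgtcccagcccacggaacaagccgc
Psmb5, chr14:54617996-54618095 (-), with TGACNNNGC: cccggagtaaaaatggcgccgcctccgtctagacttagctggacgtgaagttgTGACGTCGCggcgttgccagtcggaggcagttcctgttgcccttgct
Psmd8, chr7:29180674-29180773 (-), with 1 GC box: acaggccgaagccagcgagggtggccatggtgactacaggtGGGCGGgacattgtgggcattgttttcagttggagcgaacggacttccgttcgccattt
Ube2d3, chr3:135438132-135438231 (+), with a GC box on each strand: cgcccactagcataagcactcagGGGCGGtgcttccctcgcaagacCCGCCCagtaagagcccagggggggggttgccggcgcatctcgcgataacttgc
Usp2, chr9:44084820-44084919 (+), with 2 GC boxes: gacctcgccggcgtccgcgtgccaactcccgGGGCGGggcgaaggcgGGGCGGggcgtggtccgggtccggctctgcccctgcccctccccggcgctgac
These stretches are only a part of the window searched. In the whole window of 300 bases Psma3 held 3 matches to CCAAT, and Usp2 held 1 to TGACNNNGC besides its GC boxes. Whether the patterns go with the calls was not tested.

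Clones of 1 gene did not always give the same values. Of the 44 genes with more than 1 clone, Psma7 gave -2.23 and -2.14 between the dyes, Psma4 -2.04 and -2.01, and the 3 clones of Psmc5 -1.35 to -1.24. Psmb5 gave -1.02 and 0.19, Usp7 -1.73 and 0.20, and Psma3 from -2.03 to 0.23 over 3 clones. The 4 clones of Ube2d3 ran from -2.22 to -0.05, and the 3 of Ube2k from -2.13 to 0.09. The called clones of Psma3, Ube2d3 and Ube2k were thus the lowest of their genes, and a sister clone of each stood within 0.23 of 0. The second clone of Psmd8 gave -0.36, against -2.03 for the called one. Averaging the clones of a gene before the fit, with 105 member genes tested, left 4 calls against the pool and 45 between the dyes. The share of all genes called is not given for that fit.

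Other genes of the pathway, such as E3 ligases, ubiquitin-like modifiers and their proteases, other deubiquitinases, and chaperones and regulators of the proteasome, were counted as a list. Of 117 listed genes 81 were measured, with 131 clones. Between the dyes 53 clones were called (31.6% of all clones were), 47 lower and 6 higher, with a median of -0.49. Against D0 none was called in the EBs (37 of 15360 clones, 0.241%), and the median was -0.30 with 92 clones below 0. Against the pool 2 clones were called lower at D3+LIF (1.5% of all clones were called), and 7 lower and none higher at D4+LIF (4.83%). At D4+LIF these were Sumo2 at -1.95, a ubiquitin-like modifier, the E3 ligase Nedd4 at -1.79, Rad23b at -1.72 and the ATPase Vcp at -1.71, which bring ubiquitinated proteins to the proteasome, the 19S subunit Sem1 at -1.46, Cops6 of the COP9 signalosome at -1.51 and the SUMO protease Senp3 at -1.05. All 7 were printed on slide 2, and other clones of 5 of these genes stood closer to 0, at -0.13 for Nedd4, -0.10 for Vcp, -0.13 for Cops6, -0.42 for Sem1, and -0.59 and -0.07 for Senp3. With the opposite sign for the Cy3 values 17 clones of the list were called between the dyes and 0 at D4+LIF, and the median of the EBs minus D0 was 0.23. Pomp, the chaperone that assembles the 20S core, gave -2.48 between the dyes (adjusted p = 0.00088).

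Markers of ES cells had medians of the same sign as those of the proteasome in both comparisons, for either sign of the Cy3 values. Of 14 listed genes 8 were measured, with 10 clones, and their median was -1.83 in the EBs minus D0, with 9 of 10 below 0 and none called. Pou5f1, the transcription factor Oct4, gave -2.31, with -1.35 in Cy5 and -3.27 in Cy3, and Nanog gave -2.26, with -0.74 in Cy5 and -3.79 in Cy3 (adjusted p = 0.099 each). Between the dyes the ES cell markers had a median of -1.54, with 7 called lower and 1 higher, against 31.6% of all clones called. With the opposite sign for the Cy3 values these medians were 1.30 in the EBs minus D0 and -0.40 between the dyes, with 2 called there. Markers of extraembryonic endoderm, 21 clones of 10 genes, had medians of 0.00 in the EBs minus D0, with none called, and -0.04 between the dyes, with 6 called lower and 3 higher. They were spread widely, and a Sparc clone of slide 1 stood at -2.81 in the EBs minus D0 (adjusted p = 0.099) and at -2.29 between the dyes (adjusted p = 0.0041). The EBs minus D0 medians were -0.17 for primitive ectoderm (2 clones), 0.50 for mesendoderm (1 clone), -0.75 for neurectoderm (1 clone), 0.05 for erythroid cells (3 clones) and 0.03 for fibroblasts (9 clones), with none called. The part of the cell types in the values of the proteasome genes was not tested.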

How the data were processed

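RNA of 9 conditions was hybridised against a pooled control on 18 arrays of 2 colours, each printed as 2 slides with 34560 spots in all and every clone in 2 spots that lie 160 apart. The authors read the images with ImaGene 5.5, scaled both channels to their own mean intensity, and deposited linear ratios per spot, whose direction the files do not state. All 18 value columns were used; channel intensities were not used here, so no filter on dim spots was possible. Here the log2 of each deposited ratio was centred on the median of its slide and array, and duplicate spots were averaged. A linear model with 9 condition means and a dye term was fitted over all 15360 clones with limma 3.58.1 in R 4.3.3, with Benjamini-Hochberg adjustment over all clones and a threshold of 0.05. The design leaves few residual degrees of freedom, to which the prior of limma added 1.87, and p-values measure the spread between arrays, which differ in dye. Nothing in the labels ties each array to one of the biological sets. Depth does not apply to arrays, and their number limits the precision.

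Of the clones, 9866 have 1 gene symbol, 274 several and 5220 none in the platform annotation, and only those with 1 were eligible. All 171 members were found in RefSeq with unchanged symbols. Genes named in the text are those called, those with the smallest F-test p or the largest changes of their role, and textbook members (15 of 28 measured); others were chosen after their values were seen. The members and lists were chosen with earlier results of these data known. In simulated data 100 clones were changed by 1 and 100 by 3 on the log2 scale in the EBs against D0. The model recovered 45 and 78 of these, with 13 false calls over 15360 clones. Each simulated clone had the same spread on every array. The standard deviation of the real images ran from 0.166 to 2.40, and was 2.23 on the slide 1 Cy3 image of D0. Recovery and false calls with such uneven images were thus not tested. Alternatives were other centring and scaling, no dye term, complete clones, gene means, turned Cy3 signs and the study's SAM criterion (delta 0.5, at least 2-fold). SAM takes duplicate spots as replicates. The turned sign for descriptions that set the dyes side by side, the shares of all clones called with 1 array left out, slide 2 alone, the omission of the 3 wide images and the dye comparison were added after the data were seen. Figures were drawn with matplotlib 3.10.9.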

Additional observations from a re-analysis of the deposited data

Results flagged for a closer look

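The LIF difference of the 20S core lay on opposite sides of 0 on neighbouring days in both dyes. Its median, without LIF minus with LIF, was -0.056 in Cy5 and -0.19 in Cy3 on Day 1, and 1.62 in Cy5 and 0.65 in Cy3 on Day 2. The medians of the deubiquitinases did so as well, with values near 0, as was the Day 1 value of the 20S core in Cy5. They were -0.014 in Cy5 and -0.044 in Cy3 on Day 1, 0.092 in Cy5 and 0.057 in Cy3 on Day 2, and -0.10 in Cy5 and -0.036 in Cy3 on Day 3. If the Cy3 values had the opposite sign, the dyes would lie on opposite sides of 0 on each of these days. The Cy5 medians cover only clones with a value on every array, and the Cy3 medians all clones of the group. The slide 1 Cy5 images of D1+LIF and D2-LIF, used on Day 1 and Day 2, are 2 of the 3 wide ones. Of the 19 clones of the 20S core, 13 are on slide 1. The differences between these medians were not tested. Clone by clone, the Day 2 minus Day 1 difference called 0 members (limma, lowest adjusted p = 0.91), with 4 at an unadjusted p under 0.05 (2.34%, against 2.35% of all clones). The Day 3 minus Day 2 difference also called 0, with 1 at an unadjusted p under 0.05.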

How the results depend on the processing

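With 2 arrays per condition, and with wide images on slide 1, counts of called members depended on the processing. For the EBs against D0, 0 members became 24 without centring and 1 with whole-array centring, with only complete clones or on slide 2 alone. For each EB condition against D0, 0 became 1 with whole-array centring, 3 with complete clones, 12 on slide 2 alone and 1 without the 3 wide images. SAM called 201 over the 8 comparisons, with 65 members among 3872 clones called at D1-LIF and 57 among 3607 at D3-LIF. Its 4 repeats are 2 arrays with 2 spots each, so duplicate spots count as replicates there, while a condition has only 2 arrays. For LIF at each day, SAM called 13 instead of 0, all on Day 2, where it called 330 clones. Against the pool, 14 became 42 without centring, 45 with complete clones, 4 at the gene level, 59 on slide 2 alone, 50 without the wide images and 69 with SAM, which called 0 clones at D4+LIF, and 0 with equal spread, with quantile normalization or with turned Cy3 signs. Between the dyes, 69 became 115 without centring, 45 at the gene level and 20 with turned Cy3 signs. Usp2 at D4+LIF against the pool turned to -0.13 with turned Cy3 signs, and Ube2d3 to 0.077 with equal spread. The cause of these changes was not tested. The share of all clones called is not given for most of these settings, so the counts are not read as a trait of the members.

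The dye is the replicate number here, so the model with the dye term is the paired one. With no replicate block, 0 members were called against the pool instead of 14, and the other comparisons called 0 as before.

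Leaving out 1 array at a time, which leaves its condition with 1 array that is assumed to vary like the others, gave 0 to 28 members in the F test, 0 to 65 for the EBs against D0, 0 to 456 for each EB condition against D0, 0 to 8 for LIF, 0 to 22 for LIF at each day, 0 to 21 for the trend with LIF and 0 for that without. It gave 7 to 74 against the pool and 53 to 75 between the dyes. The highest counts came without the Cy5 array of D0, or, for LIF and the trend, without the Cy3 array of D1+LIF. For LIF at each day the Cy3 arrays of D1+LIF, D4+LIF and D2-LIF gave 22 (3.82% of the tests, against 3.45% over all clones), 18 (2.63%, against 2.9%) and 7 (1.68%, against 0.986%) when left out. Of the 171 members, 144 could be tested without the Cy3 array of D1+LIF and 104 without that of D2-LIF.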
